A study of Mus musculus with 12 samples.

Results

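The mature 5p strands of the miR-181 family (mmu-miR-181a-5p, mmu-miR-181b-5p, mmu-miR-181c-5p and mmu-miR-181d-5p) were followed in extracellular vesicles (EVs) of mouse blood. They are written below without the species prefix. They were taken by name from the count table, which lists 1995 small RNAs, and these 4 were also among the 1720 that had enough counts to be tested. The 6 opposite strands of the same hairpins (the 3p arms) were read beside them.

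The study asked whether T cells change the miRNAs carried by blood EVs (bEVs) of mice that make no T cells of their own. In the T cell group, 6 Rag1-/- mice received 10000000 pan T cells each, isolated from wild-type spleen and injected intravenously behind the eye. In the medium group, 6 Rag1-/- mice received the vehicle. All mice were males on the C57BL/6 background, and the methods give an age of 8 to 12 weeks unless stated otherwise. Loss of Rag1 blocks antigen receptor rearrangement, so that both groups lacked T and B cells of their own but kept natural killer cells, myeloid cells, platelets and red cells. The bEVs were enriched from serum by differential ultracentrifugation, and each small RNA library came from 1 mouse. A serum bEV sample mixes vesicles from many tissues, so fewer vesicles of a kind and less RNA per vesicle cannot be told apart.

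miRNAs of the miR-181 family are short RNAs that guide silencing complexes to mRNAs through the seed near their 5′ end. In thymocytes miR-181a lowers several phosphatases that damp the T cell receptor signal, and so raises the sensitivity of the cell to weak antigens. The family is not restricted to T cells: it is also made in brain, in endothelium and in other blood cells, so its presence in serum does not name a source.

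The mature sequences are shown because all 4 share one seed, the bases in capitals, and differ only downstream of it.
miR-181a-5p: aACAUUCAacgcugucggugagu
miR-181b-5p: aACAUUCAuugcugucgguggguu
miR-181c-5p: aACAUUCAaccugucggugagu
miR-181d-5p: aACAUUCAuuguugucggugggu
The seed was bases 2 to 8, and these were the only 4 of 1679 mature mouse names with it in the RefSeq table for GRCm38.p6. Counted from 1 at the 5′ end, miR-181a-5p became miR-181c-5p by G11del alone. It became miR-181b-5p by A9U, C10U and A21G plus 1 added base at the 3′ end. miR-181b-5p in turn became miR-181d-5p by C12U and the loss of its last base. By sequence the family thus fell into the pairs a with c and b with d.

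By locus the pairs were different. RefSeq placed Mir181a-1 at chr1:137966455-137966541 and Mir181b-1 at chr1:137966639-137966718 (GRCm38.p6, plus strand), 97 bases apart. Both lay in an intron of the noncoding gene Gm4258 and overlapped an exon of the lincRNA A430106G13Rik. Mir181a-2 at chr2:38852735-38852810 and Mir181b-2 at chr2:38853830-38853918 (plus strand) were 1019 bases apart, opposite an intron of Nr6a1. Mir181d at chr8:84178716-84178787 and Mir181c at chr8:84178873-84178961 (minus strand) were 85 bases apart in an intron of Nanos3, on its strand. The 5p strands of a and b come from both of their loci with one sequence and could not be assigned to either, whereas c and d each have 1 locus.

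Library totals ranged from 75475 to 130106 counts in T cell mice and from 48997 to 116048 in medium mice. Levels are given as CPM, counts relative to the size of the library, after scaling by the trimmed mean of M values (TMM), whose factors ran from 0.668 to 1.18 in T cell mice and from 0.974 to 1.32 in medium mice. The lowest factor, 0.668, belonged to T cell replicate 2. That library and medium replicate 3 held no count from 1 to 9. The family was a small part of each library: its 4 strands together had 114 to 257 counts. By mean CPM miR-181a-5p was number 152 of the 1720 tested features, miR-181b-5p 454, miR-181c-5p 635 and miR-181d-5p 722.

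miR-181c-5p, from the Nanos3 intron, had the largest difference of the 4. In the T cell group its lowest level was 337 CPM, its median 505 CPM and its highest 610 CPM. In the medium group its lowest level was 139 CPM, its median 200 CPM and its highest 325 CPM. On this scale every T cell library lay above every medium library, which was the case for 3 of the 1720 features, or 0.174%. The other 2 were miR-293-3p and miR-7117-3p. miR-181c-5p averaged 495 ± 94.3 CPM in T cell mice and 221 ± 85.2 CPM in medium mice (SD over 6 mice per group), a log2 fold change of 1.14 (SE 0.28, 95% interval 0.55 to 1.73, not adjusted for multiple testing). Its edgeR quasi-likelihood p of 6.85e-04 was number 5 of 1720, and its Benjamini-Hochberg adjusted p was 0.236, above the threshold of 0.05. At that threshold edgeR called 0 of 1720 features (0%), with a lowest adjusted p of 0.224 and an unadjusted p under 0.05 for 122 of them. limma voom likewise called 0 and had 119 at that unadjusted level. DESeq2 with its default filters gave an adjusted p to 561 features and called 40 of them higher (7.13%) and 4 lower. Of the miR-181 strands, a and b were not called, and c and d were among the features without an adjusted p.

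The separation of miR-181c-5p depended on how the libraries were scaled. Its raw counts were 31 to 54 in T cell mice and 9 to 35 in medium mice, so that they overlapped. The number of T cell libraries above the highest medium library was 6 with TMM, 5 with relative log expression (RLE) or upper quartile scaling, 3 with total counts and 2 when the libraries were scaled to the features with a mean of at least 100 counts. The log2 fold change of miR-181c-5p was 0.78 with total counts and 0.62 with scaling to abundant features, while the median over all features was −0.38 and −0.55 under those scalings and −0.049 with TMM. Relative to the median feature miR-181c-5p stood at 1.19 with TMM, 1.17 with total counts and 1.17 with scaling to abundant features. A change of scaling shifts all features nearly alike, so these values are close by construction and are no check on the difference.

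DESeq2, the tool the study's methods name, gave miR-181c-5p a p of 5.90e-05 but no adjusted p, because its mean normalized count lay below the level at which the independent filter of DESeq2 began to adjust (32.3). With that filter and the Cook's distance filter off, a setting chosen after the data were seen, DESeq2 adjusted p was 0.0221. It then called 15 of 1995 features higher with T cells (0.752%), and miR-181c-5p was the only one of the 4 members among them. Leaving out 1 library at a time under that setting, miR-181c-5p was called in 8 of 12 fits, and its adjusted p ran from 0.00292 to 0.0723. Its adjusted p exceeded 0.05 without T cell replicate 1 (0.0588), 3 (0.0574) or 5 (0.0693) and without medium replicate 6 (0.0723). Counting precision was coarse at this depth: the highest count, 54 in T cell replicate 4, had an exact Poisson 95% interval of 40.6 to 70.5, and the lowest, 9 in medium replicate 6, had 4.12 to 17.1. These intervals cover counting error only and take each count as an independent molecule, which is not known.

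miR-181a-5p, the member best known from T cell receptor signalling, was the most abundant of the 4. In the T cell group its lowest level was 488 CPM, its median 990.3 CPM and its highest 1236 CPM. In the medium group its lowest level was 513 CPM, its median 623 CPM and its highest 816 CPM. Thus 5 of 6 T cell libraries lay above the whole medium group and the sixth, replicate 2 at 488 CPM, lay below it. The means were 960.3 ± 263 CPM in T cell mice and 648 ± 108 CPM in medium mice (SD over 6 mice per group), a log2 fold change of 0.57 (SE 0.23, 95% interval 0.083 to 1.06). The edgeR unadjusted p was 0.0242 and the adjusted p 0.555. DESeq2 gave an adjusted p of 0.114. Without T cell replicate 2 the log2 fold change of miR-181a-5p was 0.70 (edgeR unadjusted p 0.00322, adjusted p 0.474). The edgeR unadjusted p rose above 0.05 without T cell replicate 3 (0.0601), T cell replicate 4 (0.0566) or medium replicate 1 (0.0543). The log2 fold change of miR-181a-5p was 0.23 with total counts and 0.024 with scaling to abundant features. Relative to the median feature miR-181a-5p stood at 0.62 with TMM and at 0.61 and 0.58 under those scalings. Such values vary little by construction, since a change of scaling shifts all features nearly alike.

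Of the 4 members, miR-181a-5p and miR-181c-5p had an unadjusted edgeR p under 0.05 and were higher with T cells, beside 89 of all 1720 features (5.17%). No member was lower at that level. These counts hold for TMM. With total counts the edgeR unadjusted p was 0.45 for miR-181a-5p and 0.021 for miR-181c-5p. With scaling to abundant features it was 0.94 for miR-181a-5p and 0.078 for miR-181c-5p. Under that scaling miR-181b-5p was lower (log2 fold change −0.64, edgeR unadjusted p 0.046).

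miR-181b-5p, which shares its primary transcripts with miR-181a, overlapped fully between the groups. In the T cell group its lowest level was 268 CPM, its median 427 CPM and its highest 557 CPM. In the medium group its lowest level was 260 CPM, its median 436 CPM and its highest 677 CPM. The medium group spanned the whole T cell range, and the 2 highest values, 677 and 576 CPM, were both from medium mice. The log2 fold change was −0.13 (SE 0.27, 95% interval −0.70 to 0.45; edgeR adjusted p 0.990), an interval that leaves room for a moderate difference in either direction.

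miR-181d-5p, the neighbour of miR-181c, was the least abundant and the most scattered member with T cells. In the T cell group its lowest level was 146 CPM, its median 301 CPM and its highest 539 CPM. In the medium group its lowest level was 176 CPM, its median 346 CPM and its highest 471 CPM. The T cell range reached beyond the medium range at both ends. The log2 fold change was −0.12 (SE 0.32, 95% interval −0.79 to 0.54; edgeR adjusted p 0.990).

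**Figure D1:**
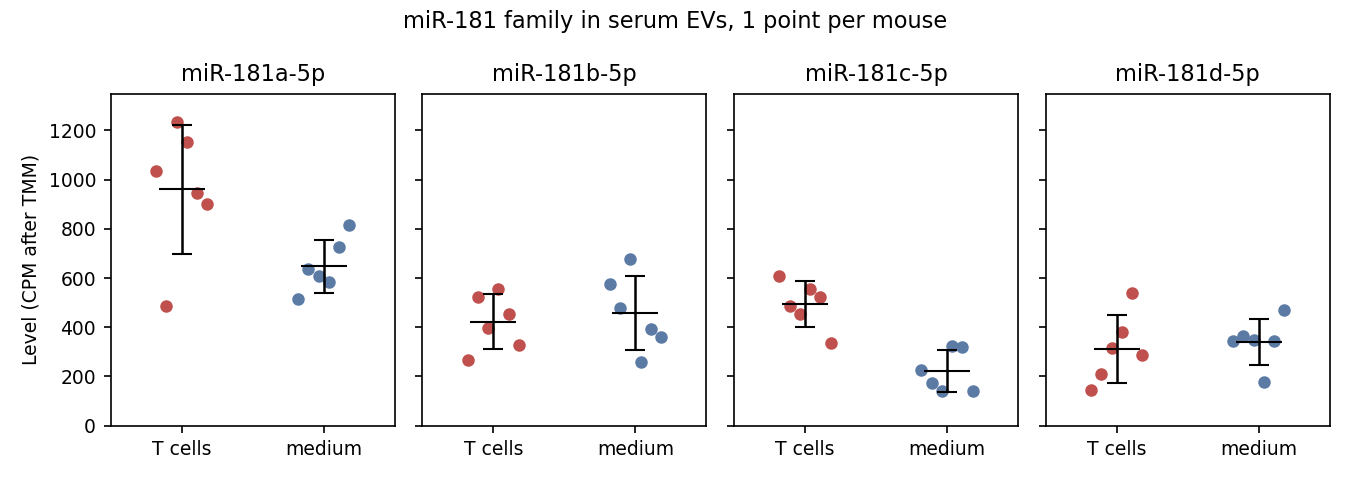
Level of each miR-181 5p strand in every library (vertical axis, CPM after TMM scaling), with T cell mice on the left and medium mice on the right of each panel; points are mice, and the bar and whiskers are the mean and SD of 6. For miR-181c-5p the lowest T cell value, 337 CPM, is above the highest medium value, 325 CPM, whereas for miR-181a-5p T cell replicate 2 (488 CPM) is below all medium values, and miR-181b-5p and miR-181d-5p overlap.

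The spread among mice differed between members but followed no common pattern by group. The values given below for counting assume that each count is an independent molecule, which is not known. For miR-181c-5p the coefficient of variation of the CPM was 19.1% in T cell mice and 38.5% in medium mice, where counting alone would give 15.7% and 23.9%. For miR-181a-5p it was 27.4% in T cell mice and 16.6% in medium mice, against 11.5% and 13.3% from counting. For miR-181d-5p it was 44.0% in T cell mice and 27.7% in medium mice, against 20.8% and 18.6% from counting. miR-181b-5p varied by 26.5% in T cell mice and 33.2% in medium mice, so that 2 members were more variable in T cell mice and 2 in medium mice. The edgeR biological coefficient of variation, which removes counting error and is shared between the groups, was 0.279 for a, 0.313 for b, 0.302 for c and 0.347 for d. Each was below the trend for features of like abundance (0.343, 0.361, 0.378 and 0.387 in the same order).

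Summed over the 4 strands, the family had 2190 ± 371 CPM in T cell mice and 1668 ± 169 CPM in medium mice (SD over 6 mice per group). The sum reached 1709 to 2650.0 CPM in T cell mice and 1346 to 1788 CPM in medium mice, and 5 of 6 T cell libraries were above the highest medium library. Its log2 fold change was 0.39 (SE 0.21) with TMM and 0.037 with total counts, and its sign turned to −0.14 with scaling to abundant features. A direction for the family as a whole could therefore not be given apart from the scaling, and no p was computed for the sum.

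The makeup of the family within a library does not depend on the scaling, since the scaling factor cancels. Of the family's 5p counts, miR-181a-5p held 43.5 ± 8.8% in T cell mice and 38.9 ± 5.5% in medium mice. miR-181b-5p held 19.6 ± 6.0% in T cell mice and 27.2 ± 8.0% in medium mice. miR-181c-5p held 22.9 ± 4.9% in T cell mice and 13.7 ± 6.4% in medium mice. miR-181d-5p held 14.0 ± 4.8% in T cell mice and 20.2 ± 4.3% in medium mice (SD over 6 mice per group throughout). The single share is imprecise: for miR-181c-5p the 95% Wilson interval was 23.2% to 36.9% around 29.6% in T cell replicate 1, where the share was highest, and 4.89% to 12.4% around 7.84% in medium replicate 3, where it was lowest.

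The order of the members by count was read in each library. miR-181a-5p was the most abundant in 5 of 6 T cell libraries and in 4 of 6 medium libraries, with miR-181b-5p first in the other 3. miR-181c-5p was above miR-181d-5p in 5 of 6 T cell libraries and in 1 of 6 medium libraries, medium replicate 4. It was above miR-181b-5p in 4 of 6 T cell libraries and in 1 of 6 medium libraries.

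**Figure D2:**
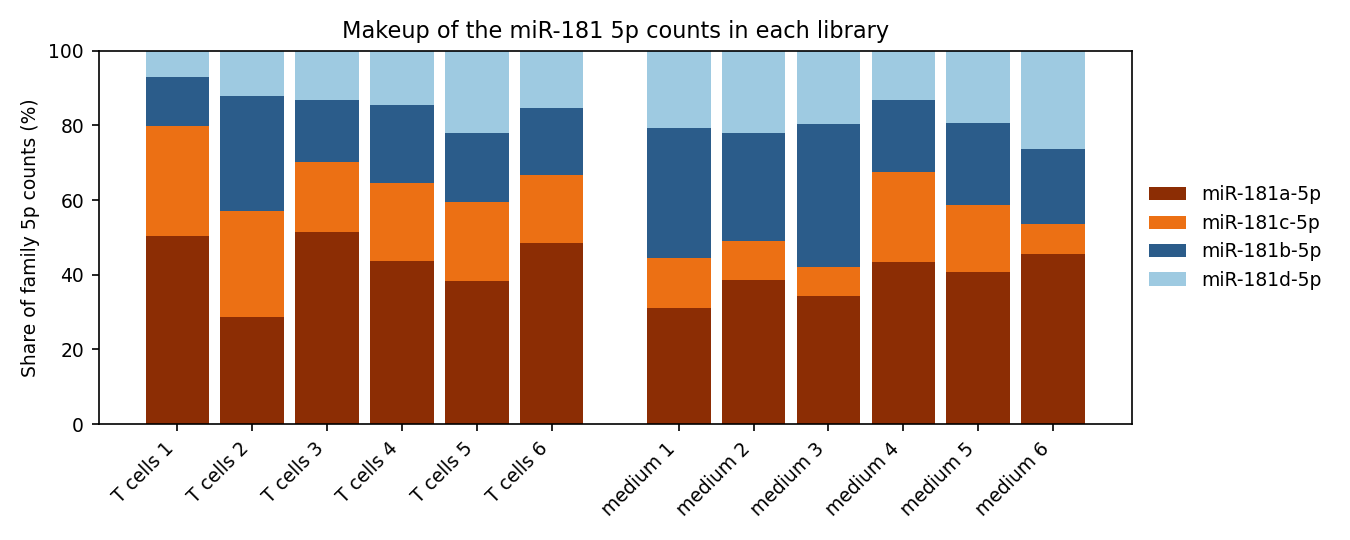
Share of the summed miR-181 5p counts held by each strand (vertical axis, percent) in the 6 T cell libraries, left, and the 6 medium libraries, right; each bar is 1 mouse. The miR-181c-5p segment averages 22.9% in T cell mice and 13.7% in medium mice, and medium replicate 4 is the medium library in which it exceeds miR-181d-5p.

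Ratios taken within each library tested the makeup directly. Of the 4 ratios compared by two-sided exact permutation tests (all arrangements of 6 mice against 6, smallest possible p 0.00216), none passed after Benjamini-Hochberg adjustment over the 4. The log2 ratio of the summed c and d strands, from the locus on chromosome 8, to the summed a and b strands was −0.77 ± 0.26 in T cell mice and −0.97 ± 0.24 in medium mice, a difference of 0.20 (exact permutation p = 0.216, adjusted p = 0.216; SD over 6 mice per group). The groups overlapped, and the c and d strands together held 36.9 ± 4.3% of the family in T cell mice and 33.8 ± 3.7% in medium mice.

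Within that cluster, the log2 ratio of miR-181d-5p to miR-181c-5p was −0.74 ± 0.75 in T cell mice and 0.64 ± 0.92 in medium mice (SD over 6 mice per group). The difference of −1.38 had an exact permutation p of 0.0216, two-sided, and an adjusted p of 0.0866 over the 4 ratios. With T cells the ratio ran from −2.01 to 0.045, and with medium from −0.86 to 1.68, so that the groups overlapped through medium replicate 4. Leaving out that library removed the overlap and gave a difference of −1.68 (exact permutation p = 0.00433, adjusted p = 0.0173). As the library was singled out by its value for this ratio, that p does not stand as a separate test. Over the 12 fits that each left out 1 library the difference ran from −1.68 to −1.13 and the adjusted p from 0.0173 to 0.173.

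Within the a and b clusters, the log2 ratio of miR-181b-5p to miR-181a-5p was −1.16 ± 0.71 in T cell mice and −0.55 ± 0.61 in medium mice (SD over 6 mice per group). The difference was −0.62 (exact permutation p = 0.141, adjusted p = 0.188), and the groups overlapped. T cell replicate 2 had the one T cell value above 0, at 0.098. Without both it and medium replicate 3, the 2 libraries with no count from 1 to 9, the difference was −0.73 (exact permutation p = 0.0476, adjusted p = 0.106).

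**Figure D3:**
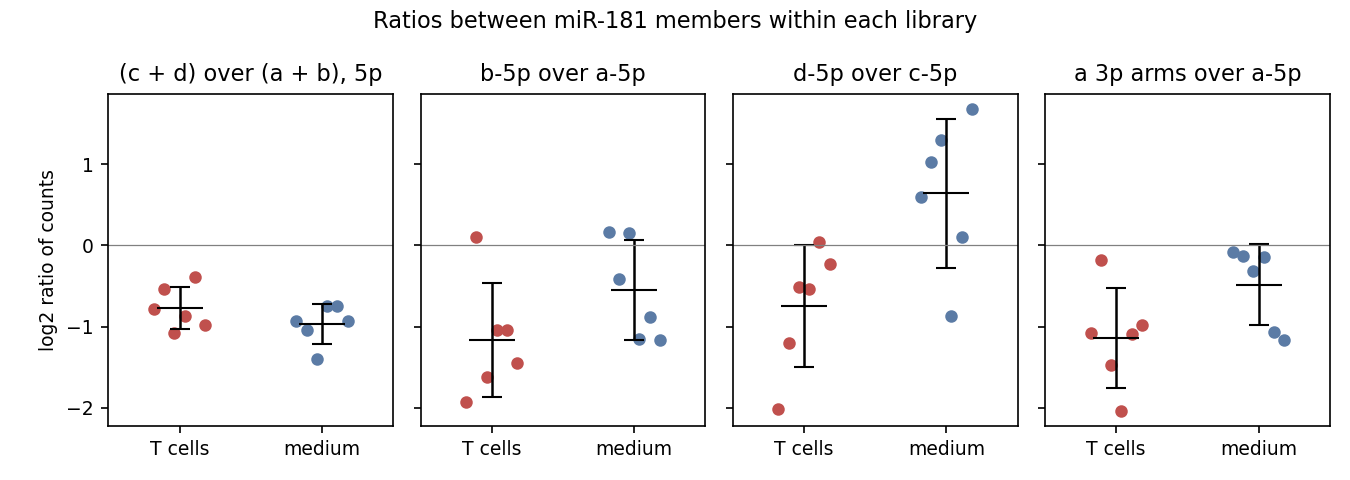
log2 ratios of counts within each library (vertical axis), with T cell mice on the left and medium mice on the right of each panel; points are mice, and the bar and whiskers are the mean and SD of 6. The ratio of d to c shows the largest difference, −1.38, with medium replicate 4 (−0.86) among the T cell values, and the ratio of (c + d) to (a + b) differs by 0.20.

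The sequence pairs bear on the same comparison, since strands that differ by few bases can exchange reads when counted. When the counts of a and c, which differ by 1 deleted base, were summed, a choice made after the data were seen, the pair averaged 1455 ± 294 CPM in T cell mice and 869 ± 124 CPM in medium mice, a log2 fold change of 0.74 (SE 0.21, edgeR adjusted p 0.244). When b and d were summed, the pair averaged 735 ± 212 CPM in T cell mice and 799 ± 202 CPM in medium mice, a log2 fold change of −0.12 (SE 0.25). The 2 members with positive values thus formed 1 sequence pair, and each locus cluster held 1 member with a positive and 1 with a negative value. How the authors' alignment assigned reads shared between these strands is not stated in the sources used here, and its part in these values was not tested.

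The 3p arms, cut from the opposite side of the same hairpins, have a sequence of their own at each locus. Some are nonetheless alike. miR-181a-1-3p (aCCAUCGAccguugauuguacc) shares the seed CCAUCGA with miR-181c-3p and differs from it at few bases. miR-181b-1-3p and miR-181b-2-3p share the seed UCACUGA. Such arms can also exchange reads when counted, which was not tested. The arms carry seeds other than ACAUUCA, as the pair from the Nanos3 intron shows with bases 2 to 8 in capitals.
miR-181c-3p: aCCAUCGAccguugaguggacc
miR-181d-3p: cCCACCGGgggaugaauguca
Of the 6 arms, 0 had an unadjusted edgeR p under 0.05 and 1 had a positive log2 fold change with TMM (0 with total counts or scaling to abundant features). The median over the 6 was −0.31, beside −0.049 for all tested features.

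miR-181c-3p comes from the same hairpin as miR-181c-5p and had a like mean count, but its level was 326 ± 185 CPM in T cell mice and 359 ± 146 CPM in medium mice (SD over 6 mice per group). Its log2 fold change was −0.14 (SE 0.37, 95% interval −0.91 to 0.62), and the T cell values, 128 to 632 CPM, overlapped the medium values, 188 to 608 CPM. The log2 ratio of the 3p to the 5p arm of this hairpin was −0.77 ± 0.97 in T cell mice and 0.67 ± 0.78 in medium mice, a difference of −1.44 that was computed after the data were seen and was not tested. In 4 of 6 T cell libraries that ratio was below every medium value. The part of reads shared between miR-181c-3p and the similar miR-181a-1-3p in these values was not tested.

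miR-181a-1-3p, from chromosome 1, had 296 ± 90.3 CPM in T cell mice and 282 ± 98.6 CPM in medium mice, a log2 fold change of 0.074 (SE 0.30). miR-181a-2-3p, from chromosome 2, had 125 ± 95.6 CPM in T cell mice and 183 ± 53.9 CPM in medium mice, a log2 fold change of −0.56 (SE 0.69). Its count was 0 in T cell replicate 2, a library with no count from 1 to 9, where a 0 may stand for a low count. These are the strands cut opposite to miR-181a-5p. The log2 ratio of the summed a arms of the 3p side to miR-181a-5p was −1.14 ± 0.61 in T cell mice and −0.48 ± 0.49 in medium mice, a difference of −0.66 (exact permutation p = 0.0909, adjusted p = 0.182, 6 mice per group).

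The arms of the b and d hairpins gave the remaining values. miR-181b-2-3p was about as abundant as miR-181b-5p, at 402 ± 143 CPM in T cell mice and 482 ± 71.3 CPM in medium mice (log2 fold change −0.25, SE 0.26). miR-181b-1-3p was the rarest arm, at 104 ± 77.5 CPM in T cell mice and 134 ± 89.0 CPM in medium mice (log2 fold change −0.36, SE 0.88), with counts of 0 in T cell replicate 3 and medium replicate 6. miR-181d-3p had 143 ± 46.4 CPM in T cell mice and 207 ± 69.6 CPM in medium mice (log2 fold change −0.53, SE 0.46).

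**Figure D4:**
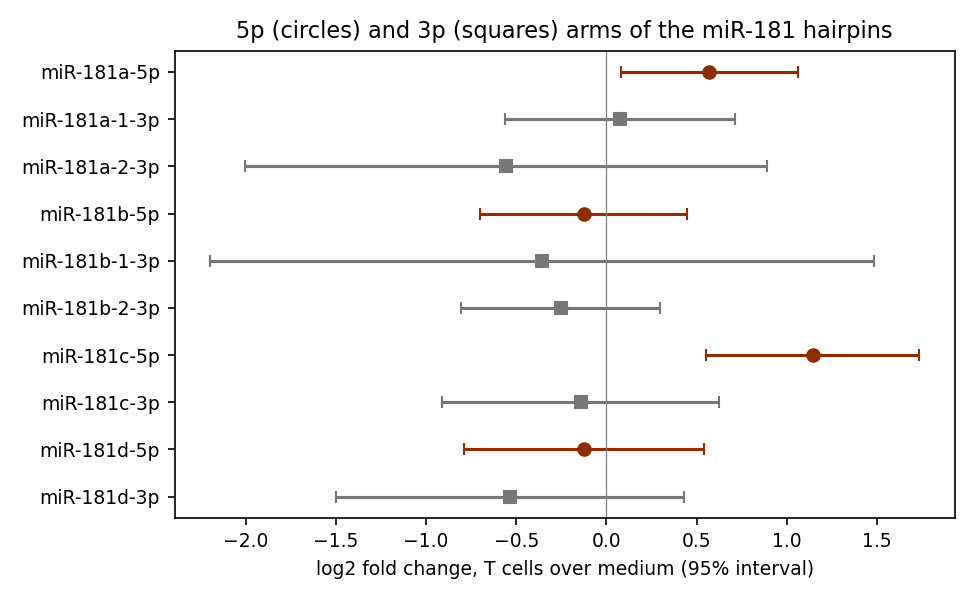
log2 fold change, T cells over medium (horizontal axis), of the 4 miR-181 5p strands (circles) and the 6 3p arms (squares), grouped by hairpin; whiskers are 95% intervals of the edgeR fit, not adjusted for multiple testing. The intervals of miR-181c-5p (0.55 to 1.73) and miR-181a-5p (0.083 to 1.06) lie above 0, and that of miR-181c-3p (−0.91 to 0.62) spans it.

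The fold changes of the members were compared across scalings and tools. miR-181c-5p had the highest value and miR-181a-5p the next highest in each of the scalings and fits plotted. The gap between them was not constant, with miR-181c-5p at 1.06 and miR-181a-5p at 0.68 in limma voom and at 1.21 and 0.54 with the replicate number as a block. All 4 were lower with total counts or scaling to abundant features, as was the median feature, and with scaling to abundant features miR-181b-5p was at −0.64 and miR-181d-5p at −0.69. None of these values had an adjusted p under 0.05 in edgeR or in limma voom.

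**Figure D5:**
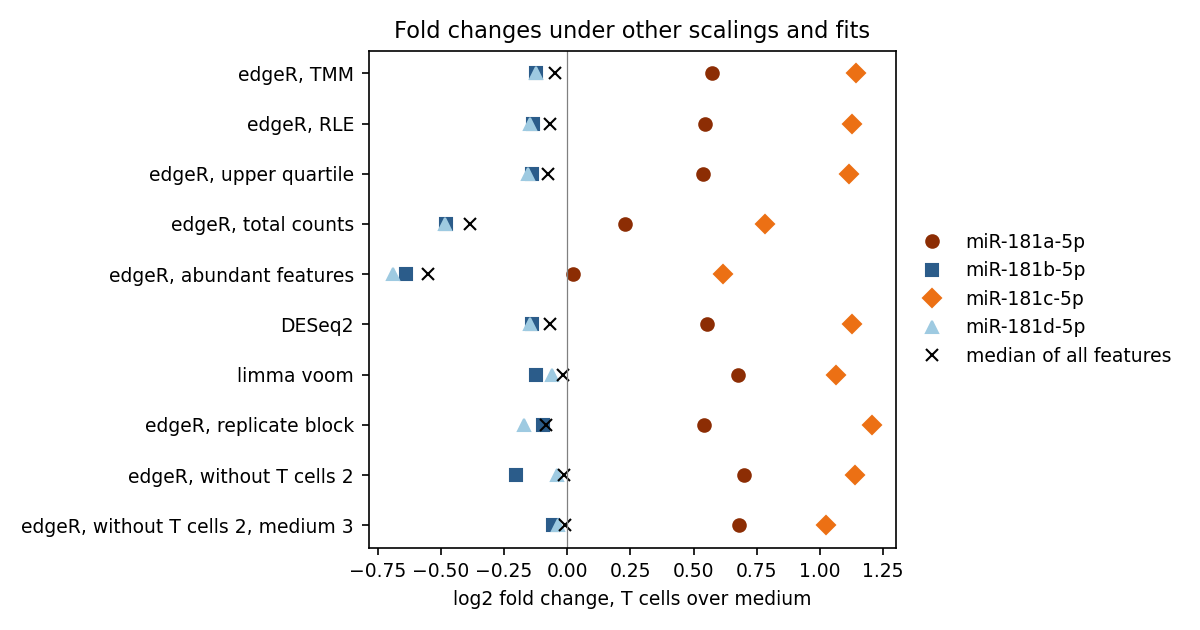
log2 fold change of each miR-181 5p strand, T cells over medium (horizontal axis), under 10 scalings and fits (rows), with the median of all features as a cross. miR-181c-5p runs from 0.62 to 1.21 and miR-181a-5p from 0.024 to 0.70, and with total counts or scaling to abundant features all 4 strands and the median move to the left together.

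Other miRNAs were read beside the family by lists chosen with earlier results known. Among 14 miRNAs known as regulators in T cells, 6 had an unadjusted edgeR p under 0.05 with higher levels in the T cell group (5.17% of all 1720 features did) and 0 with lower levels. At an adjusted p under 0.05, edgeR called 0 of the 14 and DESeq2 with its default filters called 6 higher (7.13% of the features it adjusted). Their median log2 fold change was 0.74 with TMM and 0.25 with scaling to abundant features, beside a median of 0.22 with TMM and −0.31 with scaling to abundant features for the 4 miR-181 strands. The lowest p values on the list were those of miR-27a-3p (0.95) and miR-23a-3p (0.88), which come from 1 cluster and restrain T helper cell programmes. On this list miR-155-5p (0.30) and miR-150-5p (0.39), which marks mature lymphocytes, had an unadjusted p above 0.05. With TMM 12 of the 14 had a positive log2 fold change, and miR-31-5p (−0.21) and miR-19b-3p (−0.018) had a negative one.

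Several miRNAs listed under other sources also had higher means in the T cell group. The share of all 1720 features with an unadjusted edgeR p under 0.05 and higher levels was again 5.17%. After adjustment edgeR called none of these miRNAs. DESeq2 with its default filters called 7.13% of the features it adjusted higher. Among the listed miRNAs it called 3 of the 4 platelet and myeloid, 1 of the 4 endothelial and 1 of the 6 brain miRNAs higher. It called 0 of the erythroid, liver and muscle miRNAs higher. Of 4 platelet and myeloid miRNAs 3 were higher at an unadjusted edgeR p under 0.05, and their summed level was 17129 to 50203 CPM in T cell mice and 7498 to 18377 CPM in medium mice. Of 4 endothelial miRNAs 2 were higher, with sums of 9007 to 33515 CPM in T cell mice and 3781 to 26910 CPM in medium mice. Of 6 erythroid miRNAs 2 were higher, with sums of 31652 to 228889 CPM in T cell mice and 17491 to 102384 CPM in medium mice. Of these, miR-16-5p alone averaged 79390 CPM in T cell mice and 35673 CPM in medium mice. On the same list miR-451a had a log2 fold change of 0.40 (edgeR unadjusted p 0.516). That of miR-144-3p was −0.22 (edgeR unadjusted p 0.647). The median log2 fold changes of these lists were, with TMM, 0.99 (platelet and myeloid), 0.98 (endothelial) and 0.92 (erythroid), and 0.43, 0.45 and 0.38 in the same order with scaling to abundant features, where 1 platelet and myeloid and 1 endothelial miRNA turned negative. None of these miRNAs was at 0 in any library. Whether they came from the sources their lists are named for was not tested, nor was the part of these sources in the miR-181 values. miR-191-5p (1.62) and miR-223-3p (1.03) led the platelet and myeloid list by p, miR-126a-5p (1.34) and miR-126a-3p (1.36) the endothelial one, and miR-92a-3p (1.05) and miR-16-5p (1.15) the erythroid one, each with its log2 fold change.

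Of 3 liver miRNAs 2 were higher at an unadjusted edgeR p under 0.05 (5.17% of all 1720 features were), miR-122-5p (0.77) and miR-194-5p (0.82). The list median was 0.77 with TMM and 0.19 with scaling to abundant features. Of 6 brain miRNAs 1 was higher at that level, miR-128-3p (1.06), followed by miR-138-5p (0.75, edgeR unadjusted p 0.211). Of 4 muscle miRNAs 0 were, and the lowest p values were those of miR-208a-3p (0.38) and miR-133a-3p (−0.23). The medians of the brain and muscle lists were 0.11 and 0.045 with TMM and turned to −0.40 and −0.58 with scaling to abundant features. miR-124-3p, a neuronal marker, was at 0 in T cell replicate 2 and medium replicate 3. Those are the libraries with no count from 1 to 9, where a 0 may stand for a low count. miR-206-3p, a muscle marker, was at 0 in T cell replicate 4 and medium replicate 1. Brain also makes miR-181 strands, and the part of these tissues in the miR-181 values was likewise not tested.

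Across the 12 libraries, the features whose centred log2 CPM profile was nearest to that of miR-181a-5p were miR-344e-3p, miR-453 and miR-7687-3p, at root mean square distances of 0.29, 0.29 and 0.31 among 1126 features with a mean of at least 20 counts. The other members were not close to it: miR-181d-5p was number 402 at 0.62, miR-181c-5p number 452 at 0.64 and miR-181b-5p number 537 at 0.68, where the median feature stood at 0.69. These distances describe 12 libraries that share their scaling and their counting error.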

How the data were processed

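The authors sequenced small RNA libraries (Qiagen miRNA library kit) of serum EVs from 12 mice, called bases with bcl2fastq 2.18.0.12 (submitters' processing notes), and trimmed, identified unique molecular identifiers (UMIs) and aligned reads to miRBase 21 and mm10 with the online GeneGlobe service of Qiagen. Whole-number counts, not normalized, were deposited for 1885 miRNAs and 110 piRNAs. The table does not say whether these are reads or UMIs.

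The edgeR package (4.0.16, R 4.3.3) filtered features (filterByExpr), applied TMM factors and ran the quasi-likelihood test, and p-values of 1720 features were adjusted by the method of Benjamini and Hochberg. DESeq2 1.42.0 and limma 3.58.1 (voom with sample quality weights) were alternatives. Ratios used counts plus 0.5 and exact permutation tests that went through every arrangement. The Poisson and Wilson intervals came from scipy 1.17.1. Other alternatives covered scaling, filters, the replicate number as a block, left-out libraries and summed strands. The members, lists and tests were chosen with earlier results of these data known. Named miRNAs are the members, their other arms, the 2 lowest p values of each list with some chosen after their values were seen, and the 3 profiles nearest to miR-181a-5p. Nothing states that mice were handled in batches. The edgeR p-values set a group difference against the variation among these mice, estimated with help from all tested features. The permutation p-values place the observed difference among all arrangements of the mice.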

Additional observations from a re-analysis of the deposited data

Results flagged for a closer look

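In the medium group, replicate 4 stood apart from the other 5 mice in the summed level of the 4 miR-181 5p strands: it had 1346 CPM, the nearest mouse had 1655 CPM and the highest 1788 CPM, so that its gap was 0.698 of the range of the group. It was the 1 such value among 30 group tests, and chance alone gives about 1 in 20. The same library had the highest miR-181c-5p level of the medium group and was the medium library in which miR-181c-5p exceeded miR-181d-5p.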

How the results depend on the processing

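No result with a test changed sides of its threshold in edgeR or limma voom. The sign turned for miR-181b-5p without medium replicate 3 (0.026, against −0.13 over all libraries) and for miR-181d-5p without T cell replicate 1 (0.024, against −0.12). miR-181c-5p passed the threshold only in DESeq2 without its filters, with a log2 fold change of 1.13 and, leaving out 1 library at a time, 1.13 without T cell replicate 2, 1.10 without 4 and 1.22 without 6, and 1.12, 1.07, 1.01, 1.28 and 1.25 without medium replicates 1 to 5. The summed family moved beyond the spread between mice with total counts (0.037) and with scaling to abundant features (−0.14). The ratio of d to c passed only without medium replicate 4 (−1.68), the library through which the groups overlapped. Leaving out 1 library, edgeR log2 fold changes ran from 0.49 to 0.70 for a, −0.25 to 0.026 for b, 1.03 to 1.29 for c, −0.33 to 0.024 for d and 0.33 to 0.45 for the sum. The ratio of c and d to a and b ran from 0.11 to 0.26, b to a from −0.87 to −0.46, d to c from −1.68 to −1.13 and the a arms from −0.85 to −0.48.

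The deviations of same-numbered libraries correlated by −0.14 to 0.090. At these low counts such values cannot show whether the mice were paired. The lowest edgeR adjusted p was 0.0854 with the replicate number as a block and 0.224 without it. With a replicate block, edgeR again called 0 features (112 at an unadjusted p under 0.05, against 122 without it), and the log2 fold changes were 0.54 for a, −0.097 for b, 1.21 for c (adjusted p 0.202), −0.17 for d and 0.38 for the sum. A filter of at least 50 counts in at least 6 libraries removed b, c and d and gave 0.43 for a and 0.25 for the sum. For b and d the spread between mice exceeded the counting error of independent molecules, and their 95% intervals spanned 0.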
